A study of Homo sapiens with 6 samples.

Results

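Collagen genes were examined in AC16 cells treated with 100 nM doxorubicin for 48 h and in cells kept for 48 h in the vehicle, 0.1% DMSO, with 3 libraries of poly(A) RNA in each group. The members were all protein-coding genes whose symbol is COL, a number, A and a number, from COL1A1 to COL28A1, which gave 44 of the 58299 genes in the count table. AC16 is a human line made by fusing ventricular cells of the adult heart with virus-transformed fibroblasts, so it carries the background of both parents. Doxorubicin is an anthracycline drug that traps type II topoisomerases on DNA. The series title places the treatment in a study of drug toxicity and of NRF2 in these cells. Whether the 3 libraries of a treatment are separate cultures is not stated in the labels. The p-values therefore rest on the spread between these libraries alone, which may be technical.

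Collagens are secreted proteins of 3 chains wound into a triple helix of Gly-X-Y repeats. Fibrillar collagens, such as types I, III and V, assemble into the fibrils that carry tension in heart and other connective tissue, and fibroblasts are their main source. Type IV collagen forms the sheet-like network of basement membranes. The remaining types form beaded filaments, anchoring fibrils or short-chain networks, sit on the surface of fibrils, or span the cell membrane. Of the 44 genes, 11 were fibrillar, 6 were basement membrane genes and 27 belonged to the remaining types.

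Library totals ranged from 17252862 to 19571731 counts. Levels are given as CPM, counts scaled to library depth with TMM factors, which makes every change relative to the bulk of genes. The labelled cardiomyocyte identity was checked against markers: 11 of 12 cardiomyocyte markers, among them MYH6, MYH7, TNNT2 and NKX2-5, stayed under 10 counts in every library. Summed over the 12 markers, the level was 8.51 to 10.8 CPM in doxorubicin libraries and 6.09 to 6.68 CPM in DMSO libraries, nearly all of it TTN. All 12 fibroblast markers passed the expression filter, with a sum of 11577.3 to 13832.3 CPM in doxorubicin and 13634.0 to 13711.7 CPM in DMSO. Most of it was FN1, at a mean of 9448.7 CPM in doxorubicin and 8740.9 CPM in DMSO, followed by SPARC and VIM. FN1 was not called. Of the 12, 2 rose (TCF21 and POSTN) and 5 fell (PDGFRA, PDGFRB, THY1, VIM and SPARC). The lowest means in DMSO were TCF21 at 1.03 CPM and S100A4 at 3.74 CPM. Of 6 smooth muscle and myofibroblast markers 3 rose and 1 fell, with sums of 1044.7 to 1110.6 CPM in doxorubicin and 587.0 to 828.1 CPM in DMSO. Of 6 endothelial markers, CDH5 and EMCN stayed under 10 counts in every library, PECAM1 rose, TEK fell, and VWF and KDR did not pass. Their sum was 9.43 to 11 CPM in doxorubicin and 14.5 to 16.7 CPM in DMSO. PECAM1 had 7, 5 and 5 counts in DMSO and passed the filter only through doxorubicin. The part of these markers in the collagen values was not tested. The cells are therefore called AC16 cells here and not cardiomyocytes. Doxorubicin replicate 1 stood apart from the other two: it was the lowest of its group for 24 of the 34 collagen genes tested, among them all 6 basement membrane genes. Across the 34, it lay a median of 0.23 on the log2 scale below the mean of the other two, and without it 22 collagen genes rose and 6 fell.

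After doxorubicin, COL1A1, COL1A2, COL3A1 and COL5A2, which encode chains of the main fibrils, were lower, while most other collagen genes that changed were higher. Of 44 collagen genes, 34 passed the filter on low counts and were tested with edgeR's quasi-likelihood test, adjusted over 15358 genes. At an adjusted p under 0.05, 19 rose and 6 fell, and 9 did not pass. Across all genes tested, 32.7% rose and 32.0% fell, together 64.7%, against 55.9%, 17.6% and 73.5% of the tested collagen genes. The change was at least 2-fold for 15 of those that rose and for 3 of those that fell, where 14.2% and 6.26% of all tested genes moved as far. The median log2 fold change was 0.73 for the tested collagen genes and -0.0013 for all tested genes. A total of 6 collagen genes, COL9A3, COL10A1, COL14A1, COL15A1, COL20A1 and COL21A1, stayed under 10 counts in every DMSO library and passed the filter only through their doxorubicin counts. These 6 could be tested only because they were higher in doxorubicin, so their direction was set by the filter. Of the other 28, 13 rose and 6 fell (46.4% and 21.4%), with a median log2 fold change of 0.19, where 30.0% and 33.3% of the 14755 genes that reached 10 counts in a DMSO library did so, with a median of -0.03. By at least 2-fold, 9 of these 28 rose and 3 fell, where 1595 and 961 of the 14755 genes moved as far. For 24 of the 34 tested genes no doxorubicin library overlapped a DMSO library, against 69.1% of all tested genes. Without the 6 genes whose direction the filter set, it was 18 of 28, against 10005 of the 14755 genes. The filter asked for about 10 counts, scaled to depth, in 3 libraries. Among these 28, COL4A3 had 12, 8 and 4 DMSO counts, COL5A3 had 15, 10 and 12, and COL17A1 had 7, 11 and 11. Each rose at least 2-fold, but they too needed doxorubicin libraries to pass, so a fall in them could hardly have been tested. In bulk RNA, fewer cells that express a gene and less of its RNA per cell cannot be told apart.

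**Figure D1:**
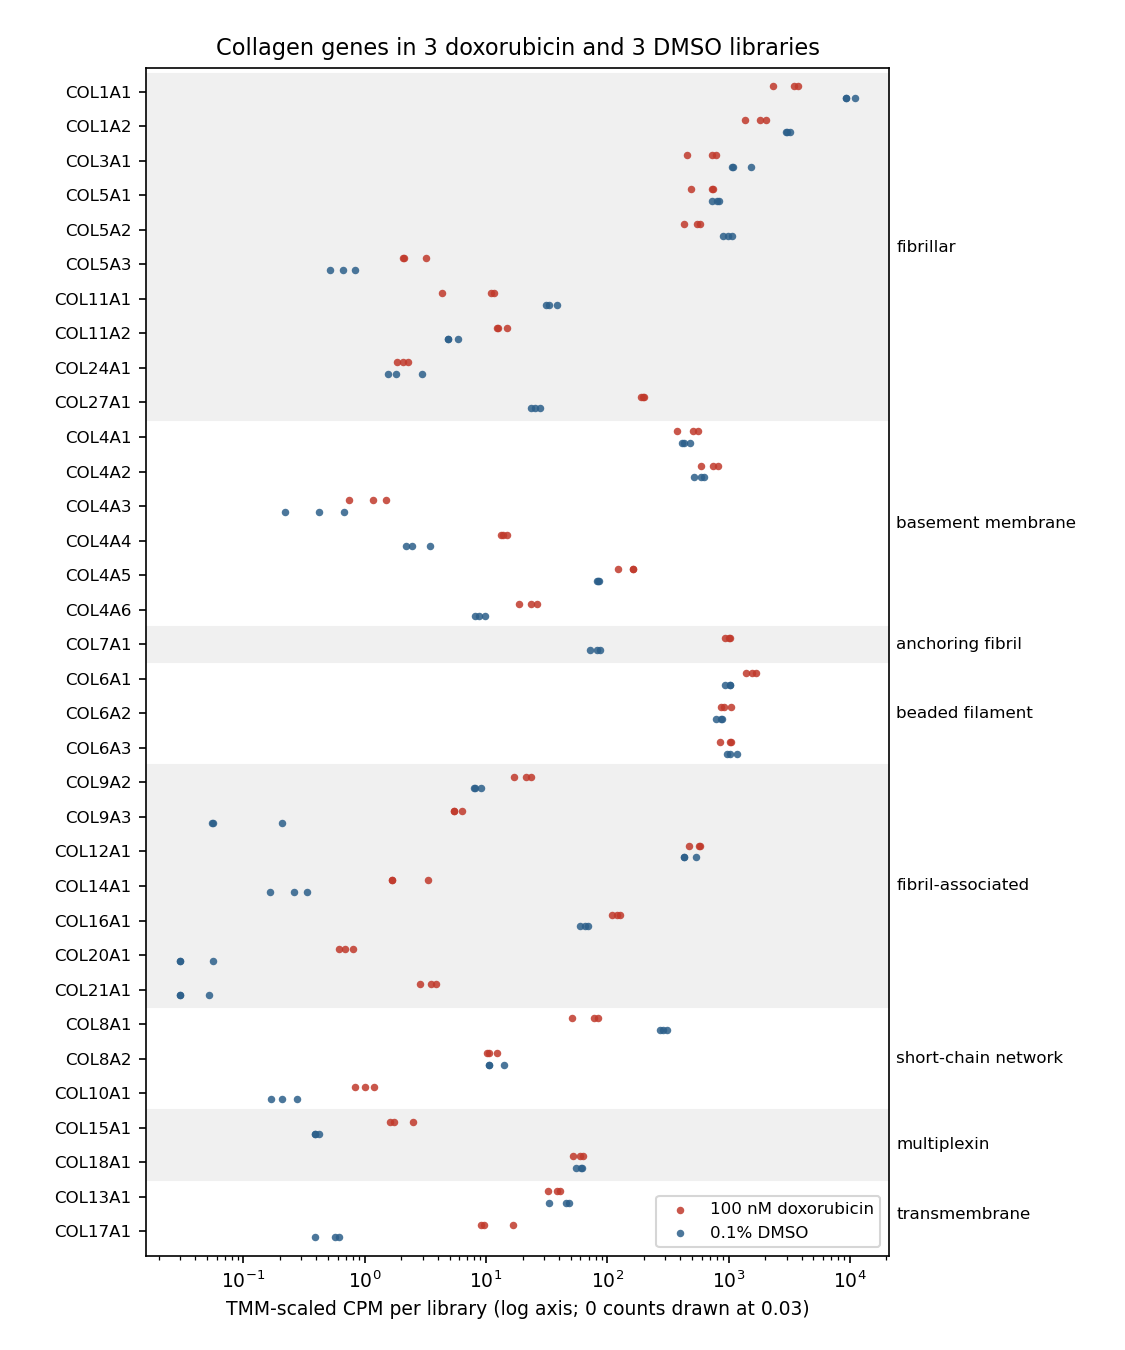
TMM-scaled CPM of the 34 tested collagen genes in each library on a log axis, with the 3 doxorubicin libraries drawn above the 3 DMSO libraries in each row and genes grouped by class. COL1A1, at 2329 to 3713 CPM in doxorubicin and 9272 to 11007 CPM in DMSO, ranked 1 of 44 in both groups per exon length too, and COL7A1 lay far to the right of its DMSO values.

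Of the 19 collagen genes at or above 4 in mean log2 CPM, 6 rose and 6 fell. Of the 9 genes below that level that reached 10 counts in a DMSO library, 7 rose and 0 fell. The 7 include COL4A3, COL5A3 and COL17A1, which needed doxorubicin libraries to pass the filter. Among all tested genes, 32.2% rose and 41.8% fell at or above that level. Below it, 27.0% rose and 21.8% fell of those that reached 10 counts in a DMSO library. The whole family gave 11251.5, 14399.8 and 15331.6 CPM in doxorubicin replicates 1 to 3, against 22597.9, 20310.9 and 20218.1 CPM in DMSO replicates 1 to 3. Every doxorubicin library thus lay below every DMSO library, at 13661.0 ± 2138.0 CPM in doxorubicin and 21042.3 ± 1348.0 CPM in DMSO (SD, n = 3 each). COL1A1 alone made up most of that gap: without it the other 43 genes summed to 10505.2 ± 1408.0 CPM in doxorubicin and 11178.2 ± 358.4 CPM in DMSO.

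The classes moved apart. The 11 fibrillar genes summed to 5300.1, 7472.6 and 8058.7 CPM in doxorubicin and to 17742.5, 15109.5 and 15173.3 CPM in DMSO. Their share of all collagen counts was 47.1%, 51.9% and 52.6% in the doxorubicin libraries and 78.5%, 74.4% and 75.0% in the DMSO libraries, with no overlap. Most of that drop in share was COL1A1, at 22.9 ± 1.92% in doxorubicin and 46.8 ± 1.65% in DMSO. The other 10 fibrillar genes held 27.6 ± 1.06% and 29.2 ± 0.635%. Their summed level still fell, to 3788.1 ± 723.1 CPM in doxorubicin from 6144.3 ± 514.7 CPM in DMSO. All shares are of a collagen total that was itself lower in doxorubicin. The 6 basement membrane genes held 10.1 ± 0.138% of collagen counts in doxorubicin and 5.34 ± 0.735% in DMSO. Their summed level was 1386.0 ± 233.9 CPM in doxorubicin and 1117.8 ± 91.2 CPM in DMSO, and the groups overlapped. The other 27 genes summed to 5331.2 ± 451.4 CPM in doxorubicin and 3916.1 ± 141.2 CPM in DMSO, or 39.3 ± 3.11% of collagen counts in doxorubicin and 18.7 ± 1.59% in DMSO. By gene, 3 fibrillar genes rose and 5 fell of 10 tested, 5 basement membrane genes rose and 0 fell of 6, and 11 of the remaining types rose and 1 fell of 18. The fibrillar risers included COL5A3, the basement membrane risers COL4A3 and the remaining ones COL17A1, all of which needed doxorubicin libraries to pass. The 6 genes whose direction the filter set were all of the remaining types, and without them 5 rose and 1 fell of 12. On the log2 fold change scale the median was -0.55 for fibrillar and 1.10 for basement membrane genes. It was 1.09 for all 18 tested genes of the remaining types and 0.19 without those 6.

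**Figure D2:**
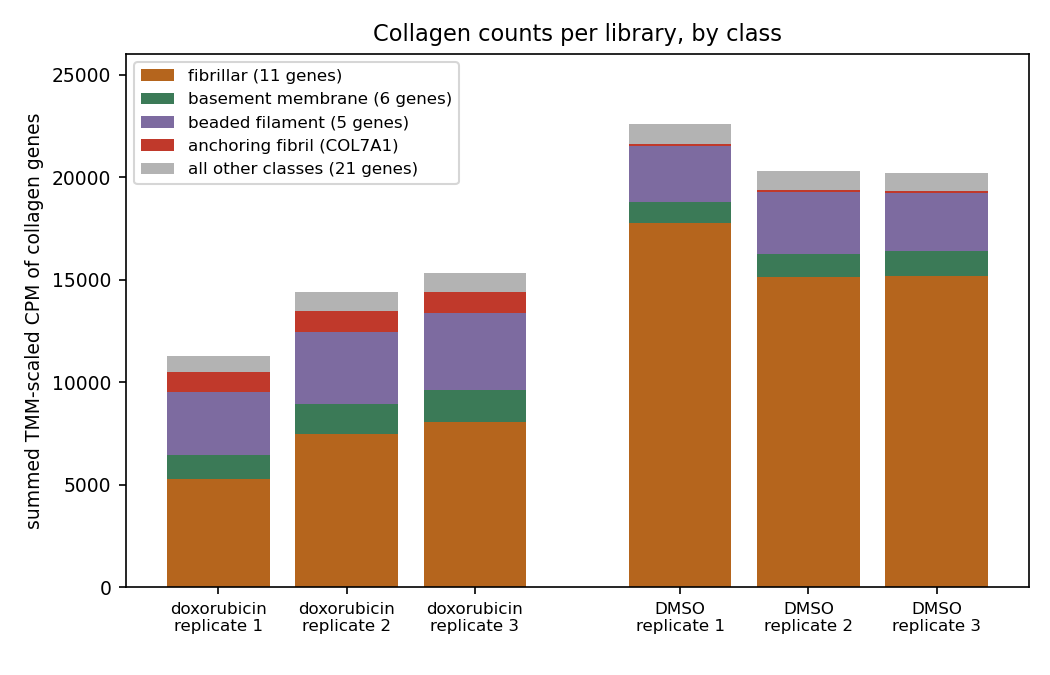
Summed TMM-scaled CPM of all 44 collagen genes in each library, stacked by class, with the doxorubicin libraries on the left and the DMSO libraries on the right. Fibrillar genes gave 47.1% to 52.6% of collagen counts in doxorubicin and 74.4% to 78.5% in DMSO, and the COL7A1 segment is thick in doxorubicin and a thin line in DMSO. COL1A1 alone gave a mean of 22.9% in doxorubicin and 46.8% in DMSO.

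Type I collagen, the main protein of fibrils in skin, bone and heart, fell in both of its chains. COL1A1 (chr17:50183289-50201632, GRCh38) had 2328.9, 3425.8 and 3712.5 CPM in doxorubicin and 11006.9, 9313.4 and 9272.0 CPM in DMSO. COL1A2 (chr7:94394561-94431232) had 1372.4, 1806.9 and 2013.4 CPM in doxorubicin and 3229.6, 2952.7 and 3029.7 CPM in DMSO. For both chains doxorubicin replicate 1 was the lowest library, and no doxorubicin library reached a DMSO library. COL1A1 fell 3.13-fold (log2 fold change -1.64 ± 0.19 SE, adjusted p = 3.0e-04, edgeR), while COL1A2 fell 1.77-fold (-0.83 ± 0.12 SE, adjusted p = 2.7e-04, edgeR). COL3A1 (chr2:188974320-189012746) encodes the homotrimeric type III collagen of distensible tissue. It had 455.7, 723.0 and 784.2 CPM in doxorubicin and 1531.7, 1065.8 and 1093.8 CPM in DMSO. The groups did not overlap, but both were broad, and the fall of 1.88-fold only just passed (log2 fold change -0.91 ± 0.28 SE, adjusted p = 0.040, edgeR). It was not called without doxorubicin replicate 2 or without any of the 3 DMSO libraries (adjusted p = 0.058 to 0.085, edgeR).

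Type V collagen is a minor partner inside type I fibrils that limits their width, and its chains did not move together. COL5A2 (chr2:189031896-189179879), which lies beside COL3A1 on the opposite strand, had 428.2, 553.2 and 581.5 CPM in doxorubicin and 1075.2, 980.6 and 898.3 CPM in DMSO. Its groups were well apart, and it fell 1.89-fold (-0.92 ± 0.11 SE on the log2 scale, adjusted p = 3.9e-05, edgeR). COL5A1 had 493.6, 732.6 and 747.7 CPM in doxorubicin and 832.0, 735.0 and 804.8 CPM in DMSO. The groups overlapped and it did not pass (log2 fold change -0.26 ± 0.16 SE, adjusted p = 0.20, edgeR). The third chain, COL5A3, had only 37, 39 and 57 counts in doxorubicin and 15, 10 and 12 counts in DMSO, and it rose 3.62-fold (adjusted p = 5.8e-05, edgeR). Of the exon bases of COL5A3, 4% lie in exons of another gene, which had 0 counts.

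Type XI collagen is the cartilage counterpart of type V, and its chains moved in opposite directions. COL11A1 had 4.32, 11.6 and 10.9 CPM in doxorubicin and 32.9, 31.5 and 38.8 CPM in DMSO. It fell 3.83-fold (log2 fold change -1.94 ± 0.34 SE, adjusted p = 0.0045, edgeR). Doxorubicin replicate 1 again had the lowest value. COL11A2 had 14.9, 12.4 and 12.5 CPM in doxorubicin and 4.86, 4.89 and 5.85 CPM in DMSO. It rose 2.55-fold (log2 fold change 1.35 ± 0.14 SE, adjusted p = 3.1e-07, edgeR). COL2A1, the main collagen of cartilage, was under the filter with 29, 14 and 9 counts in doxorubicin and 1, 3 and 0 counts in DMSO. COL24A1, a little-expressed fibrillar gene, had 1.85 to 2.27 CPM in doxorubicin and 1.55 to 2.96 CPM in DMSO and did not pass (adjusted p = 0.92, edgeR).

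COL27A1 (chr9:114155560-114312511), a fibrillar collagen of cartilage whose triple helix is shorter than that of type I, rose most among the 10 fibrillar genes tested, which do not include COL2A1. It had 196.3, 202.1 and 190.5 CPM in doxorubicin and 25.4, 23.3 and 27.8 CPM in DMSO. The libraries of each group lay close together, and it rose 7.70-fold (log2 fold change 2.95 ± 0.07 SE, adjusted p = 2.2e-14, edgeR). As RPKM, the level scaled by depth and by kilobase of exon, it reached 14 in doxorubicin and 1.82 in DMSO, which moved it to rank 13 of the 44 genes in doxorubicin from rank 21 in DMSO. The 250 bases before its RefSeq start, chr9:114155287-114155536 on the plus strand of GRCh38.p14, lie in no exon of the count table. Capitals mark GGGCGG, the GC box that factors of the Sp1 family bind, which occurs 2 times.
COL27A1: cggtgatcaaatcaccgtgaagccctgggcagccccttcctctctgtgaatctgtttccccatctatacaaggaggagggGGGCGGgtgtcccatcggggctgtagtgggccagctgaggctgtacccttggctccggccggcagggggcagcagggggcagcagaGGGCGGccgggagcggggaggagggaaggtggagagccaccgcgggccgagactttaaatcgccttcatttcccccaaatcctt

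**Figure D3:**
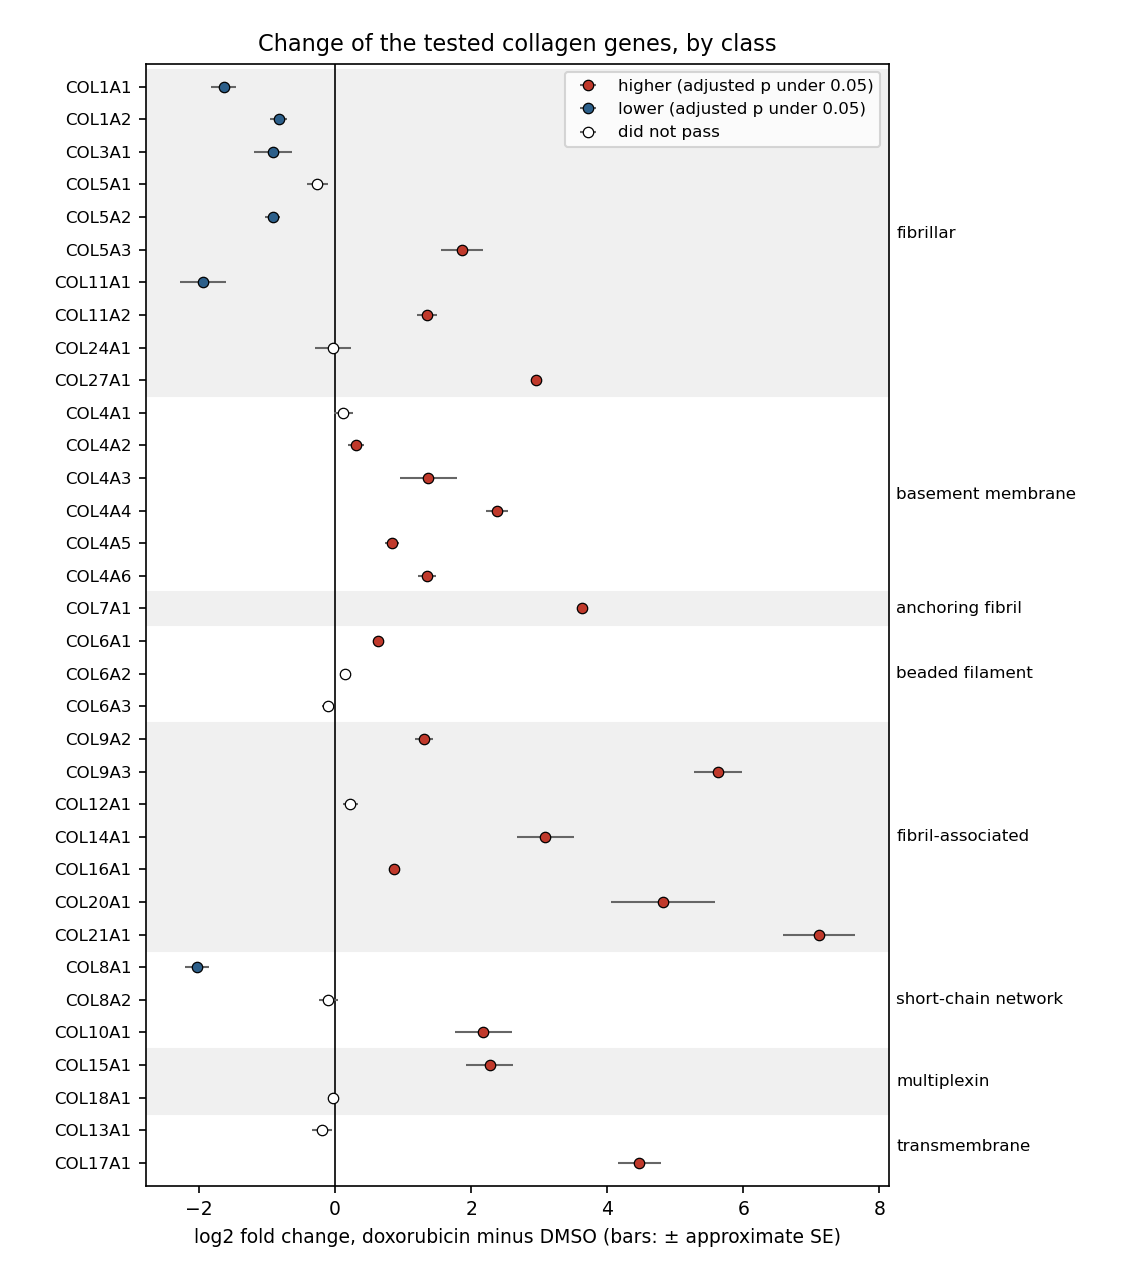
Log2 fold change (doxorubicin minus DMSO) of the 34 tested collagen genes with approximate SE as bars, grouped by class. Red points rose, blue points fell and open points did not pass. The 5 blue fibrillar points include COL1A1 at -1.64 and COL11A1 at -1.94, COL27A1 stands opposite at 2.95, and no basement membrane gene lies below 0; the points of COL20A1 and COL21A1, with 1 DMSO count each, depend on the prior count of the fit.

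Type IV genes lie in head-to-head pairs, and each pair of neighbours shares the region between its starts. The main pair, COL4A1 and COL4A2, encodes the chains found in nearly every basement membrane. COL4A1 (chr13:110148963-110307149) had 377.6, 506.5 and 556.0 CPM in doxorubicin and 409.2, 429.7 and 483.8 CPM in DMSO. The groups overlapped and it did not pass (log2 fold change 0.12 ± 0.14 SE, adjusted p = 0.48, edgeR), though without doxorubicin replicate 1 it was called higher (0.27, adjusted p = 0.003, edgeR). COL4A2 (chr13:110305812-110513027) had 590.9, 747.8 and 816.1 CPM in doxorubicin and 520.3, 595.6 and 627.7 CPM in DMSO. It rose 1.24-fold and only just passed (log2 fold change 0.31 ± 0.12 SE, adjusted p = 0.045, edgeR). The call ended without doxorubicin replicate 2 or 3 or DMSO replicate 1 or 2 (adjusted p = 0.081 to 0.14, edgeR). The RefSeq starts of the pair are 126 bases apart. The bases between them, chr13:110307158-110307283, are shown on the plus strand, along which COL4A2 is read. Of these, 17 lie in exons of COL4A2 in the count table. The capitals are 1 CCAAT, which the factor NF-Y binds, and 1 GGGCGG.
COL4A1-COL4A2: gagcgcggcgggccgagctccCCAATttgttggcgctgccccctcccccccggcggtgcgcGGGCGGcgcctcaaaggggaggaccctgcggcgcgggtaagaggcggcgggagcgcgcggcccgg

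The minor type IV pairs rose more than the main one. COL4A5 and COL4A6 encode chains of kidney, smooth muscle and skin basement membranes. COL4A5 (chrX:108439844-108697545) had 123.1, 163.2 and 163.2 CPM in doxorubicin and 82.8, 84.6 and 83.8 CPM in DMSO. It rose 1.79-fold (log2 fold change 0.84 ± 0.10 SE, adjusted p = 5.2e-06, edgeR), with no overlap. COL4A6 had 18.6, 26.2 and 23.4 CPM in doxorubicin and 8.10, 9.84 and 8.73 CPM in DMSO and rose 2.56-fold (adjusted p = 1.7e-07, edgeR). COL4A3 and COL4A4 encode chains of the mature filter membrane of the kidney. COL4A4 had 13.2, 15 and 13.9 CPM in doxorubicin and 3.46, 2.19 and 2.43 CPM in DMSO and rose 5.21-fold (log2 fold change 2.38 ± 0.16 SE, adjusted p = 2.7e-09, edgeR). COL4A3 stayed at 13, 22 and 27 counts in doxorubicin and 12, 8 and 4 counts in DMSO. It rose 2.59-fold (adjusted p = 0.0091, edgeR), which DESeq2 did not call (adjusted p = 0.053). Of its exon bases, 1.31% lie in exons of MFF-DT on the opposite strand, which had 91 counts over all libraries against 86 for COL4A3. Without doxorubicin replicate 3 neither COL4A2 nor COL4A3 was called, which left 3 basement membrane genes that rose. The starts of COL4A5 and COL4A6 are 379 bases apart, and those of COL4A3 and COL4A4 are 418 bases apart. The 250 bases before the start of COL4A5, chrX:108439588-108439837 on the plus strand, contain 2 CCAAT matches in capitals, 1 of them read as ATTGG on the opposite strand, and no GGGCGG.
COL4A5: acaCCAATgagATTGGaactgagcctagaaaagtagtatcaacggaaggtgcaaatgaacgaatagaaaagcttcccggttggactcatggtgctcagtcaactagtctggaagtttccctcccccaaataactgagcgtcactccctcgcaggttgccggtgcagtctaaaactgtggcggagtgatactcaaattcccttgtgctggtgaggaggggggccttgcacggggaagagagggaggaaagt

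COL7A1 (chr3:48564073-48595267) rose most among the 19 collagen genes at or above 4 in mean log2 CPM. It encodes type VII collagen, which forms the anchoring fibrils that tie the skin basement membrane to the dermis. It had 934.9, 1015.1 and 1019.5 CPM in doxorubicin and 86.8, 82.0 and 71.4 CPM in DMSO. The values within each group were close, and the groups were more than 10-fold apart. It rose 12.4-fold (log2 fold change 3.63 ± 0.08 SE, adjusted p = 4.9e-15, edgeR). Its share of collagen counts was 7.34 ± 0.866% in doxorubicin and 0.380 ± 0.0255% in DMSO. By level per exon length it ranked 6 of 44 in doxorubicin at 89.4 RPKM, near COL3A1 at 96.1 RPKM and COL4A2 at 82.5 RPKM, and 13 in DMSO at 7.23 RPKM. The 250 bases before its RefSeq start, chr3:48595330-48595579 on the minus strand, lie in no exon of the count table. They contain 3 GGGCGG matches, 1 of them read as CCGCCC, and 1 TATAAA match, read as TTTATA on the opposite strand. TATAAA is the letter pattern of a TATA box, and whether this match acts as one was not tested.
COL7A1: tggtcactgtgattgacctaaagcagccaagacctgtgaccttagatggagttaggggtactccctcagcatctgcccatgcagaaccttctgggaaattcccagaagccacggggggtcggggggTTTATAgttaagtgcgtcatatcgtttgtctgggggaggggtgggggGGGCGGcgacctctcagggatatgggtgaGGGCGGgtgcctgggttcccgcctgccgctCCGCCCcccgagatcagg

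Promoter windows of RefSeq (GRCh38.p14) were found for 32 of the 44 collagen genes, as 44 windows of 250 bases, since some genes have several starts. Both strands were searched for 5 motifs, and none of the motifs contains another. GGGCGG was in 54.5% of the collagen windows and in 42.6% of all 35116 windows, CCAAT in 27.3% of collagen and 32.0% of all windows, and TATAAA in 18.2% of collagen and 10.7% of all windows. TGANTCA, the AP-1 site, was in 1 collagen window, that of COL10A1 (2.27% against 6.57%). The half-site consensus of p53 was in 1 collagen window, that of COL17A1 (2.27% against 5.57%). These matches describe letters in the windows shown and say nothing of binding.

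Type VI collagen forms beaded filaments around cells, from chains encoded by COL6A1, COL6A2 and COL6A3. Of these, 1 rose. COL6A1 (chr21:45981737-46005050) had 1400.9, 1547.7 and 1671.2 CPM in doxorubicin and 932.2, 1026.9 and 1031.8 CPM in DMSO. It rose 1.54-fold with no overlap (log2 fold change 0.63 ± 0.07 SE, adjusted p = 1.2e-06, edgeR). Its neighbour COL6A2 had 859.9, 918.2 and 1044.1 CPM in doxorubicin and 791.7, 873.7 and 870.1 CPM in DMSO. The groups overlapped and it did not pass (log2 fold change 0.15 ± 0.07 SE, adjusted p = 0.078, edgeR), though it was called higher without doxorubicin replicate 1 (adjusted p = 0.010, edgeR). COL6A3, the longest chain, had 850.4, 1049.9 and 1024.6 CPM in doxorubicin and 1027.9, 1162.2 and 962.5 CPM in DMSO and did not pass (log2 fold change -0.11 ± 0.09 SE, adjusted p = 0.29, edgeR). COL6A5 and COL6A6, chains that can stand in for the third, were under the filter. COL6A5 had 8, 2 and 3 counts in doxorubicin and 0 in each DMSO library, at least 4.40-fold higher when the DMSO group is set at a floor of 3 counts in all (0.0543 CPM). COL6A6 had 6, 9 and 4 counts in doxorubicin and 6, 1 and 4 in DMSO.

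Fibril-associated collagens have interrupted helices and bind the surface of fibrils, and 7 of the 10 were tested. Of these, COL9A3, COL14A1, COL20A1 and COL21A1 rose but passed the filter only through their doxorubicin counts, and of the other 3, 2 rose and 0 fell. COL16A1 had 108.8, 120.2 and 127.3 CPM in doxorubicin and 69.6, 65.7 and 59.6 CPM in DMSO and rose 1.83-fold with no overlap (log2 fold change 0.87 ± 0.08 SE, adjusted p = 4.7e-08, edgeR). COL12A1, the abundant one, had 467.4, 586.1 and 565.9 CPM in doxorubicin and 537.2, 426.9 and 426.1 CPM in DMSO. Its groups overlapped and it did not pass (log2 fold change 0.22 ± 0.11 SE, adjusted p = 0.099, edgeR). It was called higher without doxorubicin replicate 1 or without DMSO replicate 1 (adjusted p = 0.0083 and 0.0044, edgeR). Type IX collagen coats the fibrils of cartilage. Its chain COL9A2 had 23.7, 17.1 and 21.5 CPM in doxorubicin and 8.16, 9.01 and 7.90 CPM in DMSO and rose 2.48-fold (adjusted p = 1.9e-07, edgeR). COL9A3 (chr20:62816244-62841159) had 95, 120 and 97 counts in doxorubicin and 1, 4 and 1 in DMSO. That was 5.72 ± 0.531 CPM in doxorubicin and 0.106 ± 0.0882 CPM in DMSO (SD, n = 3 each), and it rose 49.6-fold (log2 fold change 5.63 ± 0.35 SE, adjusted p = 7.0e-10, edgeR). The size rests on 6 DMSO counts, and without DMSO replicate 2 the log2 fold change was 6.51 (adjusted p = 4.8e-09, edgeR). Of its exon bases, 0.932% lie in exons of TCFL5 on the opposite strand, which had 2877 counts over all libraries. The third chain, COL9A1, had 3, 2 and 4 counts in doxorubicin and 0 in DMSO, at least 3.04-fold higher against the same floor.

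COL21A1 (chr6:56056590-56394094), a fibril-associated collagen of vessel walls, was close to silent in DMSO. It had 50, 74 and 63 counts in doxorubicin and 0, 1 and 0 in DMSO, a scaled ratio of 189.7 with an exact 95% counting interval of 33.6 to 7532.2 (adjusted p = 7.3e-09, edgeR). COL20A1 had 14, 13 and 11 counts in doxorubicin and 1, 0 and 0 in DMSO, a ratio of 38.5 (interval 6.51 to 1562.1) (adjusted p = 3.8e-05, edgeR). These intervals cover counting error only. Without the library that holds the single DMSO count, the DMSO group was at 0 for either gene. COL14A1, which is found on type I fibrils, had 58, 32 and 30 counts in doxorubicin and 6, 5 and 3 in DMSO and rose 8.52-fold (log2 fold change 3.09 ± 0.42 SE, adjusted p = 7.8e-06, edgeR). Here doxorubicin replicate 1 was the highest of its group. Since COL21A1, COL20A1 and COL14A1 passed the filter only through their doxorubicin counts, their direction was set by the filter. COL22A1, with 2, 5 and 2 counts in doxorubicin and 0 in DMSO, was at least 3.04-fold higher. COL19A1 had 1, 2 and 2 counts in doxorubicin and 1, 1 and 3 in DMSO. Neither was tested.

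Of the 3 short-chain collagens, 1 fell, 1 did not pass, and 1 rose but passed the filter only through its doxorubicin counts. COL8A1 (chr3:99638475-99799226), a chain of the type VIII network under endothelium and in vessel walls, had 51.4, 77.7 and 83.7 CPM in doxorubicin and 273.1, 310.2 and 288.6 CPM in DMSO. It fell 4.09-fold with wide separation (log2 fold change -2.03 ± 0.18 SE, adjusted p = 1.1e-04, edgeR). It was the only gene outside the fibrillar class that fell. Without DMSO replicate 1 or with no filter on low counts, COL13A1 was called lower as well. COL8A2, the partner of COL8A1, had 10.1, 10.6 and 12.3 CPM in doxorubicin and 14.1, 10.6 and 10.5 CPM in DMSO and did not pass (log2 fold change -0.10 ± 0.14 SE, adjusted p = 0.56, edgeR). COL10A1, the marker of hypertrophic cartilage, had 21, 19 and 15 counts in doxorubicin and 3, 4 and 5 in DMSO and rose 4.54-fold (adjusted p = 2.6e-04, edgeR). That direction was set by the filter.

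The transmembrane collagens and the multiplexins, whose C-terminal fragments include endostatin, held 1 riser each, though COL15A1 passed the filter only through doxorubicin. The other riser, COL17A1, needed doxorubicin libraries to pass as well. COL17A1 (chr10:104031286-104086002) encodes a hemidesmosome protein that anchors basal skin cells to their basement membrane. It had 16.6, 9.02 and 9.68 CPM in doxorubicin and 0.391, 0.573 and 0.608 CPM in DMSO. It rose 22.1-fold, with doxorubicin replicate 1 the highest library (log2 fold change 4.47 ± 0.32 SE, adjusted p = 6.9e-08, edgeR). Among 5 epithelial markers, CDH1, KRT8, KRT18 and KRT19 rose too and EPCAM was not tested, with a summed level of 390.5 to 398.6 CPM in doxorubicin and 217.9 to 294.4 CPM in DMSO. Their part in the COL7A1 and COL17A1 values was not tested. COL13A1 had 32.2, 38.4 and 41.0 CPM in doxorubicin and 33, 48.7 and 45.6 CPM in DMSO and did not pass (log2 fold change -0.19 ± 0.15 SE, adjusted p = 0.28, edgeR). It was called lower without DMSO replicate 1 (-0.35, adjusted p = 0.0068, edgeR). COL15A1 had 44, 33 and 29 counts in doxorubicin and 7, 8 and 7 in DMSO and rose 4.83-fold (adjusted p = 2.0e-05, edgeR). COL18A1, the gene that holds endostatin, had 52.3, 59.9 and 62.5 CPM in doxorubicin and 55.4, 61.2 and 62.0 CPM in DMSO and did not pass (log2 fold change -0.03 ± 0.08 SE, adjusted p = 0.74, edgeR). Of its exon bases, 16.4% lie in exons of SLC19A1 on the opposite strand, which had 6683 counts over all libraries against 6461 for COL18A1.

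The remaining genes under the filter were COL23A1, COL25A1, COL26A1 and COL28A1. COL23A1 had 2 counts in doxorubicin replicate 1 and 0 elsewhere. COL25A1 had 13, 11 and 9 counts in doxorubicin and 1, 0 and 2 in DMSO, a ratio of 11.2 (exact counting interval 3.50 to 56.9). COL26A1 had 7, 4 and 2 counts in doxorubicin and 0 in DMSO, at least 4.40-fold higher. COL28A1 had 7, 5 and 5 counts in doxorubicin and 1, 3 and 3 in DMSO.

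Genes whose chains meet in the same protein were then set against each other as ratios of counts per kilobase of exon in each library. Type I collagen is normally built of 2 COL1A1 chains and 1 COL1A2 chain. The COL1A1 to COL1A2 ratio was 1.93, 2.15 and 2.10 in doxorubicin and 3.87, 3.58 and 3.48 in DMSO, without overlap. Since exon lengths sum all annotated exons, the height of a ratio is less certain than its difference between groups. The COL5A1 to COL5A2 ratio was 0.802 ± 0.0576 in doxorubicin and 0.516 ± 0.0502 in DMSO (SD, n = 3 each). COL3A1 and COL5A2, which are neighbours but parts of different collagens, kept a ratio of 1.30 ± 0.161 in doxorubicin and 1.31 ± 0.179 in DMSO. For COL4A1 to COL4A2 the ratio was 0.680, 0.720 and 0.724 in doxorubicin and 0.836, 0.767 and 0.819 in DMSO, and for COL4A5 to COL4A6 it was 5.17 ± 0.296 in doxorubicin and 7.41 ± 0.638 in DMSO. The COL6A1 to COL6A2 ratio was 1.64, 1.70 and 1.61 in doxorubicin and 1.19, 1.18 and 1.20 in DMSO, the tightest of the 8 pairs in DMSO. COL6A3 to COL6A1 stood at 0.172 ± 0.0108 in doxorubicin and 0.287 ± 0.0292 in DMSO. COL8A1 to COL8A2 stood at 3.18 ± 0.574 in doxorubicin and 12.6 ± 2.59 in DMSO. In 7 of the 8 pairs the groups did not overlap, COL3A1 with COL5A2 being the exception, and no test was made of these ratios. By level, 69.1% of all tested genes did not overlap either, and no such share was computed for ratios of other gene pairs.

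**Figure D4:**
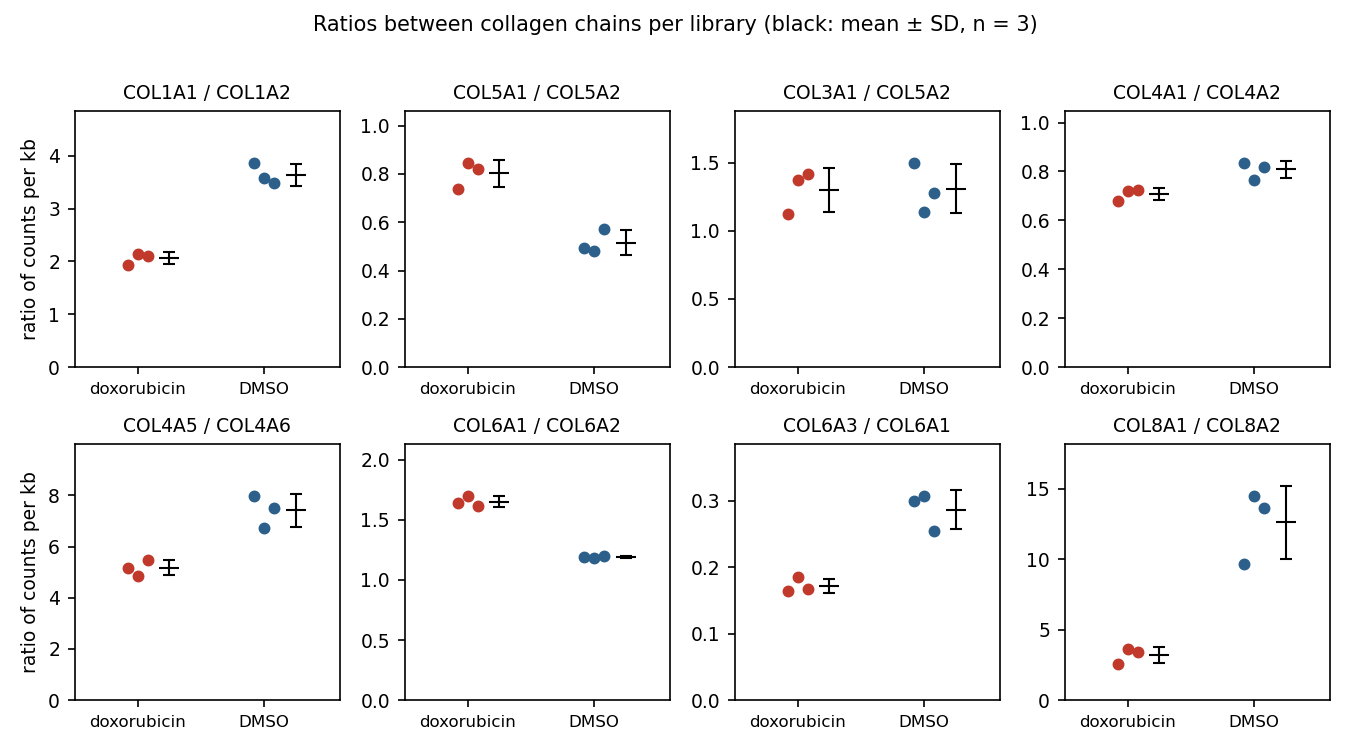
Ratio of counts per kilobase of exon between 8 pairs of collagen genes, 1 point per library, with doxorubicin left of DMSO and black marks for the mean ± SD (n = 3). The COL1A1 to COL1A2 ratio lies between 1.93 and 2.15 in doxorubicin and between 3.48 and 3.87 in DMSO, and only the panel of COL3A1 and COL5A2 shows overlapping groups.

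Collagen chains need hydroxylases, chaperones and a widened export route before they leave the cell. Of 19 modification and folding genes, all tested, 10 fell and 4 rose (52.6% and 21.1%). The median gene changed by -0.26 on the log2 scale. Across all tested genes, 32.0% fell and 32.7% rose. At or above 4 in mean log2 CPM, where most of the genes listed here and below lie, 41.8% fell and 32.2% rose. SERPINH1, the collagen chaperone HSP47, fell 1.94-fold to 402.4 ± 38.1 CPM in doxorubicin, against 779.9 ± 9.37 CPM in DMSO (adjusted p = 5.0e-09, edgeR). P4HA3, a prolyl 4-hydroxylase subunit, fell 2.92-fold to 1.17 ± 0.328 CPM in doxorubicin, against 3.45 ± 0.204 CPM in DMSO (adjusted p = 3.7e-05, edgeR). Those that rose included P3H2, a prolyl 3-hydroxylase that acts on type IV collagen, at 138.4 ± 7.49 CPM in doxorubicin and 49.4 ± 1.42 CPM in DMSO (2.80-fold, adjusted p = 1.4e-11, edgeR). P4HA2, a prolyl 4-hydroxylase subunit known as a p53 target, rose 1.75-fold to 218.7 ± 14.5 CPM in doxorubicin, against 125.3 ± 10.8 CPM in DMSO. FKBP14 and COLGALT2 also rose, the second not without doxorubicin replicate 1 or DMSO replicate 2 (adjusted p = 0.11 and 0.12, edgeR). Of 16 secretion genes, 8 rose and 4 fell. CREB3L1, a membrane-bound factor that activates type I collagen genes in bone, fell 2.81-fold to 60.7 ± 5.01 CPM in doxorubicin, against 170.7 ± 11.6 CPM in DMSO (adjusted p = 5.5e-11, edgeR). TMEM131, which takes part in procollagen export, rose 2.12-fold to 220.5 ± 6.60 CPM in doxorubicin, against 104.2 ± 5.67 CPM in DMSO. KLHL12, an adaptor for the enlarged coats that carry procollagen, rose 1.88-fold to 74.5 ± 1.90 CPM in doxorubicin, against 39.6 ± 0.576 CPM in DMSO. SEC23A, SEC24D and PREB fell as well.

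Outside the cell, propeptides are cut off and chains are crosslinked, and 2 of these 15 genes rose while 9 fell. That is 13.3% and 60.0%, against 32.7% and 32.0% of all tested genes. The 9 include FURIN, which fell 1.14-fold (adjusted p = 0.032, edgeR). Its call ended with library totals only (adjusted p = 0.082, edgeR) and with DESeq2 (adjusted p = 0.055). FURIN was also not called without doxorubicin replicate 2 or 3 or DMSO replicate 2 or 3 (adjusted p = 0.076 to 0.13, edgeR). BMP1, the C-propeptide protease, rose 2.65-fold to 205.5 ± 2.87 CPM in doxorubicin, against 77.6 ± 6.74 CPM in DMSO (adjusted p = 4.0e-11, edgeR), and the related TLL2 rose, with 19, 16 and 12 counts in doxorubicin and 1, 0 and 3 in DMSO. TLL2 passed the filter only through its doxorubicin counts, so its direction was set by the filter. ADAMTS3, an N-propeptide protease, fell 3.19-fold to 2.08 ± 0.545 CPM in doxorubicin, against 6.70 ± 1.11 CPM in DMSO. LOX, the founding lysyl oxidase, fell 1.98-fold to 141.3 ± 23.9 CPM in doxorubicin, against 279.9 ± 29.3 CPM in DMSO (adjusted p = 1.6e-04, edgeR). Of 12 receptor genes, 10 were tested, 4 rose and 2 fell (40.0% and 20.0% of those tested). Of the 4, OSCAR, with 6, 6 and 11 counts in DMSO, needed doxorubicin libraries to pass the filter. The collagen-binding integrin subunit ITGA2 rose 3.80-fold to 152.9 ± 26.3 CPM in doxorubicin, against 40.2 ± 6.67 CPM in DMSO (adjusted p = 1.9e-05, edgeR). Its partner ITGB1 fell 1.77-fold to 953.8 ± 152.4 CPM in doxorubicin, against 1689.5 ± 94.2 CPM in DMSO. The receptor kinase DDR1 rose 1.67-fold to 196.2 ± 16.8 CPM in doxorubicin, against 117.3 ± 10.3 CPM in DMSO. Of 9 proteases that cut collagen, 6 were tested, 2 rose and 2 fell (33.3% each of those tested). MMP14, a membrane-bound collagenase, rose 2.23-fold to 658.1 ± 116.0 CPM in doxorubicin, against 294.4 ± 32.9 CPM in DMSO (adjusted p = 7.5e-05, edgeR). MMP1, the interstitial collagenase, had 29, 14 and 14 counts in doxorubicin and 1, 0 and 0 in DMSO, a ratio of 57.8 (exact counting interval 9.97 to 2323.4). MMP1 passed the filter only through its doxorubicin counts, so its direction was set by the filter. CTSL, a lysosomal protease, fell 1.32-fold, and MMP2 fell 1.19-fold (adjusted p = 0.038, edgeR), a call that ended without doxorubicin replicate 2 or 3 or DMSO replicate 1 or 2 and left 1 protease that fell.

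Of 27 regulators of collagen transcription and mRNA, 10 rose, 8 fell and 9 did not pass, so 37.0% rose and 29.6% fell. Of the 10, TGFB3, with 22, 10 and 16 counts in DMSO, needed doxorubicin counts to pass the filter, and DESeq2 did not call it (adjusted p = 0.11). Of the 8, SP1 was not called by DESeq2 (adjusted p = 0.066). With RLE scaling, library totals only or a filter of 1 CPM, SP1 was not called either (adjusted p = 0.056 to 0.13, edgeR). Its call also ended without doxorubicin replicate 2 or 3 or DMSO replicate 1 or 2 (adjusted p = 0.054 to 0.26, edgeR). SCX, the tendon factor that activates COL1A1 and COL1A2, rose 5.42-fold to 7.78 ± 1.28 CPM in doxorubicin, against 1.42 ± 0.259 CPM in DMSO (adjusted p = 3.0e-08, edgeR). SOX9, the activator of cartilage collagen genes, rose 3.46-fold to 38.1 ± 5.35 CPM in doxorubicin, against 11 ± 2.39 CPM in DMSO (adjusted p = 2.9e-07, edgeR). TGFBR1, a TGF-beta receptor kinase, rose 3.20-fold to 169.3 ± 0.181 CPM in doxorubicin, against 52.8 ± 0.898 CPM in DMSO (adjusted p = 1.1e-12, edgeR). CCN2, a target of TGF-beta signals, did not pass (336.9 ± 113.1 CPM in doxorubicin and 504.8 ± 110.5 CPM in DMSO, adjusted p = 0.21, edgeR). LARP6, which binds a stem-loop in type I collagen mRNAs, did not pass either (adjusted p = 0.44, edgeR). These lists were counted in the same test as all genes, where 32.7% rose and 32.0% fell, or 32.2% and 41.8% at or above 4 in mean log2 CPM.

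**Figure D5:**
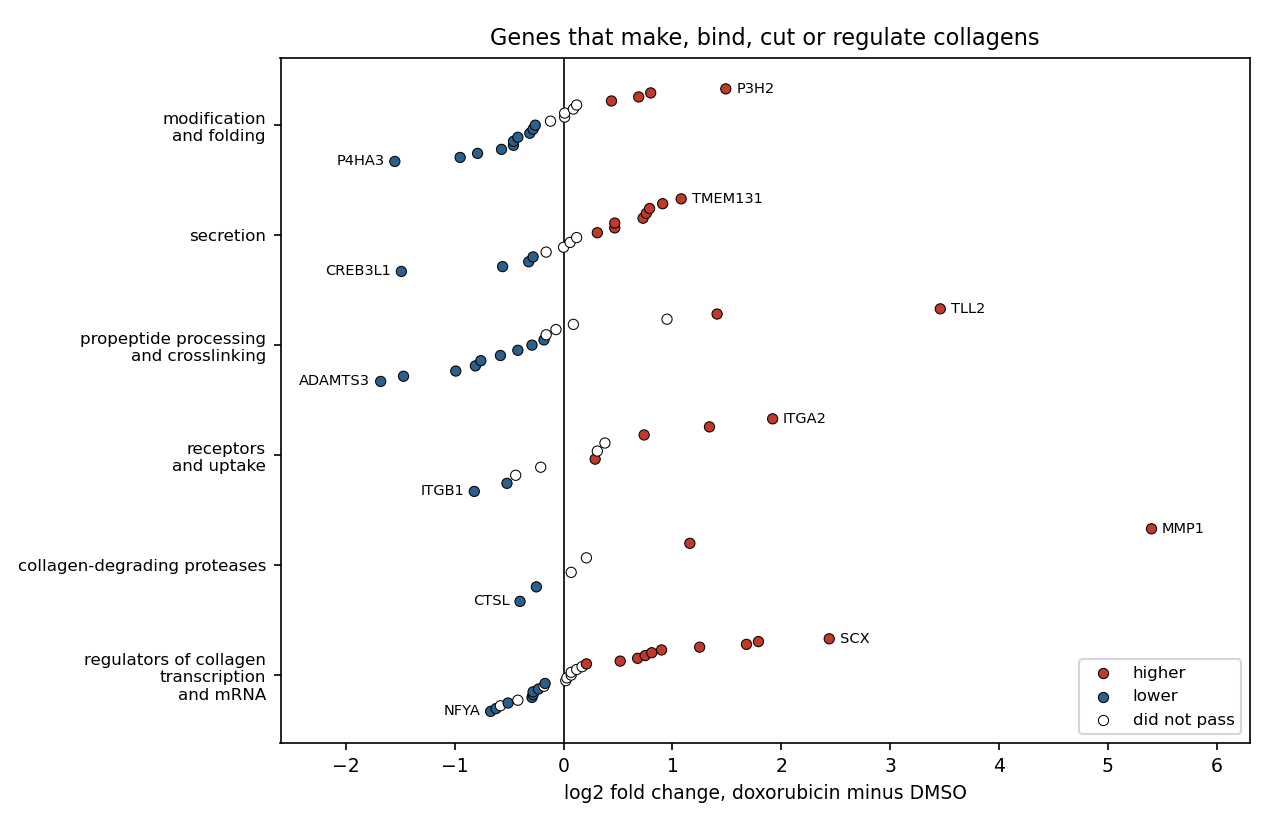
Log2 fold change (doxorubicin minus DMSO) of the tested genes in 6 lists of collagen biology, 1 point per gene, ordered by value within a list, with the extremes of each list named. Red points rose, blue points fell and open points did not pass. The folding list runs from P4HA3 at -1.55 to P3H2 at 1.49, and SCX at 2.44 is the highest regulator.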

How the data were processed

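The authors deposited unnormalized counts, with genes in rows and the 6 libraries in columns, in the layout of featureCounts output per the file headers. Per the submitters' processing notes, GRCh38 (hg38) was the build and featureCounts, Subread, SAMtools and STAR were used, while versions, settings and whether reads or pairs were counted are not given in the sources used here. Libraries were unstranded (TruSeq v2) per the labels' protocols, so reads from overlapping genes on opposite strands cannot be told apart. Symbols came from a gene name table (57717 of 58299 IDs matched) and gene types from GENCODE release 29. No columns of other samples were present (0).

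Genes were filtered with filterByExpr (minimum count 10, minimum total 15) and scaled by TMM, and doxorubicin was compared with DMSO by the two-sided quasi-likelihood test of edgeR 4.0.16 (R 4.3.3, robust fit), with Benjamini-Hochberg adjustment over all 15358 genes. Standard errors (SE) are approximate. The procedure was tested on simulated data. Libraries of the same treatment differed by a chi-square of 2.82 to 9.39 per degree of freedom, so each library counted as 1 replicate. The members and lists were chosen with earlier results of these data known. Values in every library are given for members at or above 4 in mean log2 CPM and for called members changed at least 2-fold (as counts where these were low). From each of the 6 pathway lists, the 3 called genes that changed most at or above 1 in mean log2 CPM are named, beside others chosen after their values were seen. Alternatives were RLE scaling, library totals only, DESeq2 1.42.0, no filter, a filter of 1 CPM in 3 libraries, a replicate block, leaving out each library in turn, and the 50 most abundant genes left out. Upstream sequences are from RefSeq (GRCh38.p14), whose chromosome coordinates are those of GRCh38.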

Additional observations from a re-analysis of the deposited data

How the results depend on the processing

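Of the 25 collagen genes called, 22 kept their direction and call under each of the 13 alternatives in which they were tested. The exceptions were COL3A1, COL4A2 and COL4A3, and no member reversed with a call. The count of collagen genes that rose ranged from 18 to 22 and of those that fell from 5 to 6 with 1 library left out. With the 50 most abundant genes left out, which removes COL1A1, COL1A2 and COL6A1, 3 fibrillar genes fell and 1 receptor gene fell. With no filter, 17 genes of the remaining types rose and 2 fell. With at least 1 CPM in 3 libraries, 1 processing gene and 1 protease rose and 1 protease fell, and with library totals only, 1 protease fell. Over the 6 runs with 1 library left out, 3 to 6 basement membrane genes rose, 1 to 2 genes of the remaining types fell and 1 to 2 proteases fell. Samples with the same replicate number did not deviate together (r = 0.0515, -0.0231 and 0.027), so the numbers were not read as pairs. With the replicate number as a block, 19 collagen genes rose and 5 fell, the difference being COL3A1 (-0.92, adjusted p = 0.16, edgeR). Library totals moved the median of all genes by 0.0396 on the log2 scale. Genes under 10 counts in a group rest on few reads, and changes there were not detectable unless large.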
